A study of Mus musculus with 7 samples.

Results

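The Hox genes are the homeobox genes of the Hoxa, Hoxb, Hoxc and Hoxd clusters, taken here by symbol, which is Hox followed by a cluster letter from a to d and a paralog number, with antisense names left out. The 36 such genes described here had a named probe on the array, out of 17047 named genes in all. These 36 genes were covered by 46 probes, with 2 probes for 10 genes, and they fell into 10 Hoxa, 10 Hoxb, 7 Hoxc and 9 Hoxd genes. Hoxc6 and Hoxc11 had no named probe and are not analysed here. By position in the cluster, 11 genes belonged to paralog groups 1 to 4, 10 to groups 5 to 8 and 15 to groups 9 to 13.

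Hox genes encode homeodomain transcription factors that give cells their position along the head-to-tail axis. Within a cluster the genes stand in the order in which they are used: those at the 3′ end, with low paralog numbers, are switched on earlier and nearer the head, and those at the 5′ end, with high numbers, later and nearer the tail. Genes of the same number in different clusters are paralogs, with similar proteins and partly shared roles. In the gut they are expressed mainly in the mesenchyme around the epithelial tube, where they help to set the borders between esophagus, stomach, intestine and hindgut, and low-numbered members such as Hoxa5 and Hoxb5 act in the mesenchyme of lung and stomach.

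RNA of 7 mouse samples had been hybridised to 7 one-colour Agilent arrays, 1 array per sample and 1 sample per group, with the aim, per the labels, of setting stomach-type tissue made from embryonic stem (ES) cells against embryonic and adult organs. One array held ES-derived tissue at culture day 42, grown with 50 ng/mL EGF, 100 ng/mL FGF10 and 250 ng/mL R-spondin1 together with Wnt3a and Noggin. Another held ES-derived tissue at day 46, which had spent the 4 days after day 42 in 50 ng/mL EGF with 100 ng/mL Shh and 10 ng/mL Bmp4. Time and medium therefore differ together between these arrays. The other arrays held the stomach primordium of ICR mouse embryos at embryonic day 9.5 (E9.5) and the esophagus, lung, stomach and intestine of adult ICR mice, with no sex or further age given. Neither the ES line nor the number of embryos, animals or cultures behind an array is stated, and no transgene or deletion is named for any group. The 5-month culture and the day 46 culture in unchanged medium that the study's design mentions are not analysed here.

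With 1 array per group there is no replicate check, so the results are sizes and counts without a test or an error, and the number of arrays limits their precision. The spread between different probes of the same gene gave a technical yardstick: its standard deviation (SD) was between 0.48 and 0.63 log2 units for 5 of the 7 comparisons, 0.87 for day 42 against adult stomach and 0.89 for day 42 against E9.5 stomach. Replicate spots of a probe on an array had a median SD between 0.07 and 0.10. The 4 adult organs shared 1 slide and the other 3 arrays were on slides of their own, so for those 3 the slide cannot be told apart from the sample. The file headers also give another release of the scanner software for both ES-derived arrays than for the rest. In these tissue samples, fewer cells of a type and less RNA per cell cannot be told apart.

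Markers of other tissues were present on several arrays. The E9.5 array was above background for 10 of 10 neural tube genes and 7 of 8 somite genes, against 5 to 9 and 3 to 5 in the adult organs. Day 46 had 8 and 6 of them, and day 42 had 4 and 3. All 6 adult stomach markers were higher on the adult stomach array than on any other. The esophagus array was above background for 4 of 4 lung markers, with a level of 5.12 for the surfactant gene Sftpc against 9.71 on the lung array. Of the adult stomach markers, 5 of 6 were above background at day 42 and 6 of 6 at day 46, and all 6 were at least 4-fold lower at day 42 than in adult stomach. Markers of heart (4 of 4) and liver (4 of 4) were also above background on both ES-derived arrays. For scale, 78.5% of all genes were above background at day 42, 90.7% at day 46, 82.4% at E9.5 and 78.2% to 85.3% in the adult organs.

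Promoter sequence is shown for 4 members that illustrate the patterns described below: Hoxa10 and Hoxa11, above background on the embryonic and ES-derived arrays and in no adult organ, Hoxb1, above background in E9.5 stomach alone, and Hoxb8, above background by its main probe in adult stomach and intestine and not in lung or esophagus. Each is the 250 bases before a RefSeq start site, 5′ to 3′ on the gene's strand, from build GRCm38.p6: chr6:52234940-52235189 (minus strand) for Hoxa10, where a second start site is listed, chr6:52245811-52246060 (minus strand) for Hoxa11, chr11:96365508-96365757 (plus strand) for Hoxb1 and chr11:96281655-96281904 (plus strand) for Hoxb8. Capitals mark matches, on either strand, to 5 short motifs: CCAAT (the CCAAT box), TTTATNG (Cdx proteins), TGACAG (Meis and Pknox proteins), AGGTCA (1 repeat of a retinoic acid receptor site) and TGATNNAT (Pbx with a Hox protein).
Hoxa10: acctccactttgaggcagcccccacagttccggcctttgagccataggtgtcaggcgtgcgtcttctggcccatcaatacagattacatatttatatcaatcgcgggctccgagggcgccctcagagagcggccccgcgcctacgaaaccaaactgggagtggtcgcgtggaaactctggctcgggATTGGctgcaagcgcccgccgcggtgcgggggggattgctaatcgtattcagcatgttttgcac
Hoxa11: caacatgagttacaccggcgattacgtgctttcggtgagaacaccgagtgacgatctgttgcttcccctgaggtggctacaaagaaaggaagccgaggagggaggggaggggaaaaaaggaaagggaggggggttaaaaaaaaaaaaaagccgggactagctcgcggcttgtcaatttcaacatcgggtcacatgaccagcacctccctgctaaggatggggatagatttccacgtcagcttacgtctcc
Hoxb1: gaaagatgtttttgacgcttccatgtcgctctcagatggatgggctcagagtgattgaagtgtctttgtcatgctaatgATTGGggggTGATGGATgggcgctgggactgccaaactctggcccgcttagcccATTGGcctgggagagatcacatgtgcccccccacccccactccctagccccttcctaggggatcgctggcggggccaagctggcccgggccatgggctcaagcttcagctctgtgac
Hoxb8: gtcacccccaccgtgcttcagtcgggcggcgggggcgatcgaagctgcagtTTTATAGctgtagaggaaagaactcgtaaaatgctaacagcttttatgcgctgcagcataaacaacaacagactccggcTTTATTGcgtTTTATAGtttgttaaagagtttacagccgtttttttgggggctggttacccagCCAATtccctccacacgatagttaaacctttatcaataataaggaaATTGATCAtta
A match is a description of the letters and not a bound site. The Hoxb8 window held 3 matches to the Cdx motif and 1 each to CCAAT and to the Pbx motif. Hoxb1 held 2 CCAAT boxes and 1 Pbx match, Hoxa10 held 1 CCAAT box, and the Hoxa11 window held none of the 5 motifs.

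Over the 24 windows of 22 Hox genes in the promoter table, CCAAT was found in 14 (58.3%), against 33.8% of all 32851 windows of that length. The Cdx motif was in 2 of the 24 (8.33% against 9.81%), those of Hoxb8 and Hoxd4. The retinoic acid receptor motif was in 6 (25% against 14.02%), the Pbx motif in 4 (16.7% against 7.68%) and the Meis motif in 2 (8.33% against 15.9%). The Hox windows were rich in CpG, with a median of 12.5 CpG against 6 over all windows and a range from 2 to 35.

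On 5 of the 7 arrays the share of Hox genes above background was below that of all genes, and the gap was widest in adult lung and esophagus. A probe was counted as above background where the scanner software set that flag in at least 0.5 of its spots. In adult lung 16 of 36 Hox genes were above background against 78.2% of all genes, in esophagus 19 against 83.8%, in stomach 22 against 85.3% and in intestine 23 against 84.6%. On the day 42 array it was 24 of 36 against 78.5%. The E9.5 array (30 of 36 against 82.4%) and the day 46 array (33 of 36 against 90.7%) were near their background.

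The difference between arrays lay mostly in the 5′ genes, paralog groups 9 to 13. Of these 15 genes, 2 were above background in lung, 3 in esophagus, 4 in stomach and 5 in intestine, but 9 in E9.5 stomach, 10 at day 42 and 14 at day 46. For paralog groups 1 to 4 the counts ran only from 7 of 11 at day 42 to 11 of 11 at E9.5, with 8 or 9 in each adult organ. For groups 5 to 8 they ran from 6 of 10 in lung to 10 of 10 in adult stomach, E9.5 stomach and day 46. These shares are drawn in the bar plot by paralog group.

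**Figure D1:**
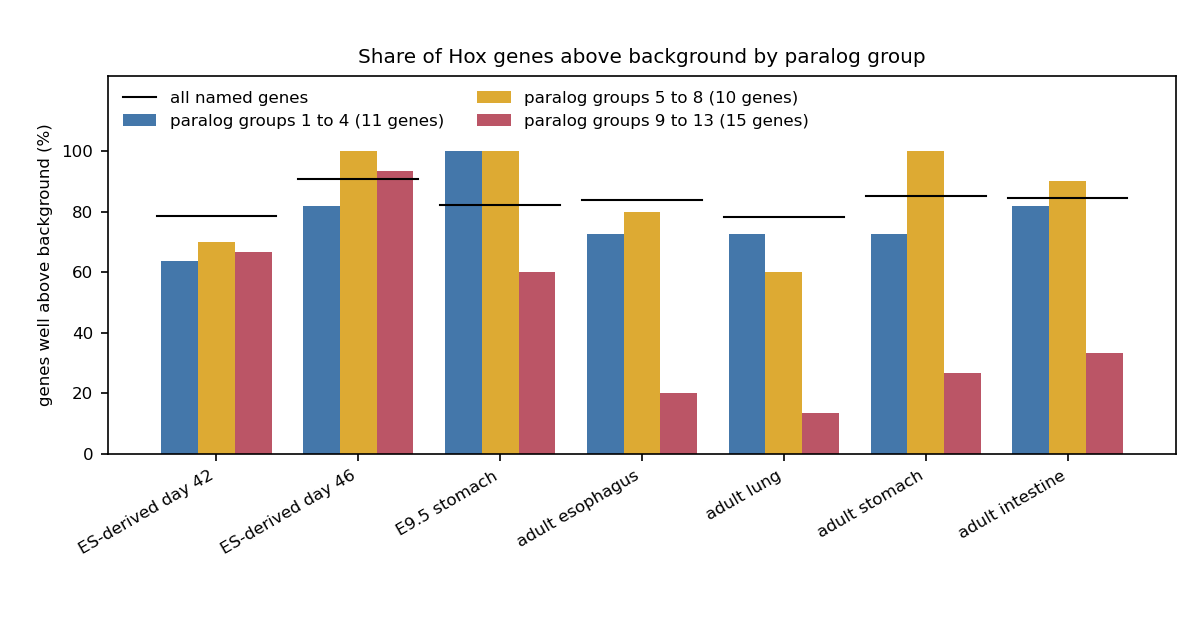
Share of Hox genes well above background (%, vertical axis) on each of the 7 arrays, for paralog groups 1 to 4 (11 genes), 5 to 8 (10 genes) and 9 to 13 (15 genes), with black lines for the share over all 17047 named genes. The bars for groups 9 to 13 are the lowest on each adult array, where 2 to 5 of 15 genes were above background, and reach 10 of 15 at day 42 and 14 of 15 at day 46.

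The arrays differ in the lowest signal they call above background, from -5.18 in lung down to -7.13 at day 46, in log2 units below the array's 75th percentile. At a common level of -5.18 on every array, groups 9 to 13 had 2 genes above it in each adult organ, 8 at E9.5, 8 at day 42 and 11 at day 46, and the totals were 20 Hox genes at day 42, 25 at day 46, 29 at E9.5, 18 in esophagus, 16 in lung and 19 in each of stomach and intestine, against 75.8% (E9.5) to 81.4% (day 46) of all genes. The gap between adult and embryonic or ES-derived arrays in the 5′ genes was thus present at the common level as well.

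Above background on all 7 arrays were 15 Hox genes: Hoxa3 to Hoxa7, Hoxa9, Hoxb2 to Hoxb7, Hoxc4, Hoxd4 and Hoxd9. The share of all genes above background on all 7 arrays was not counted. For the 4 adult organs together it was 74.5%, against 16 of 36 Hox genes. Hoxc12, a gene of the 5′ end of its cluster, was above background on none, while 16123 of 17047 named genes were above background on some array. No adult organ showed signal for 9 Hox genes (9.72% of all genes were of this kind): Hoxa10, Hoxa11, Hoxb1, Hoxc9, Hoxc10, Hoxc12, Hoxd1, Hoxd11 and Hoxd13. Of these, Hoxa10, Hoxa11, Hoxc9 and Hoxc10 were above background on both ES-derived arrays (0.51% of all genes were so with no adult organ), and the first 3 of them also in E9.5 stomach. Hoxb1 and Hoxd1 were above background in E9.5 stomach and nowhere else (0.581% of all genes).

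All 24 Hox genes of the day 42 array were also found at day 46, as were 99.8% of all genes above background at day 42. Day 42 shared 21 genes with E9.5 stomach (87.5% of its 24 and 70% of the 30), 18 with adult intestine (75% of 24 and 78.3% of 23) and 17 with adult stomach (70.8% of 24 and 77.3% of 22). Over all genes above background at day 42 these shares were 94.9%, 97.1% and 97.7%. Of all genes above background on the other array, day 42 shared 90.5% for E9.5 stomach, 90.17% for intestine and 90.01% for adult stomach. The 16 genes of adult lung were above background in esophagus, stomach and intestine too, as were 95.2% of all genes found in lung. Stomach had 6 beyond them, Hoxb8, Hoxb9, Hoxc5, Hoxc8, Hoxc13 and Hoxd8. Lung thus held 72.7% of the Hox genes of stomach, against 89.4% of all genes above background in stomach. The stomach signals of Hoxb9 (-5.40), Hoxc13 (-5.65) and Hoxd8 (-5.34) lay below the limit of the lung array (-5.18).

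**Figure D2:**
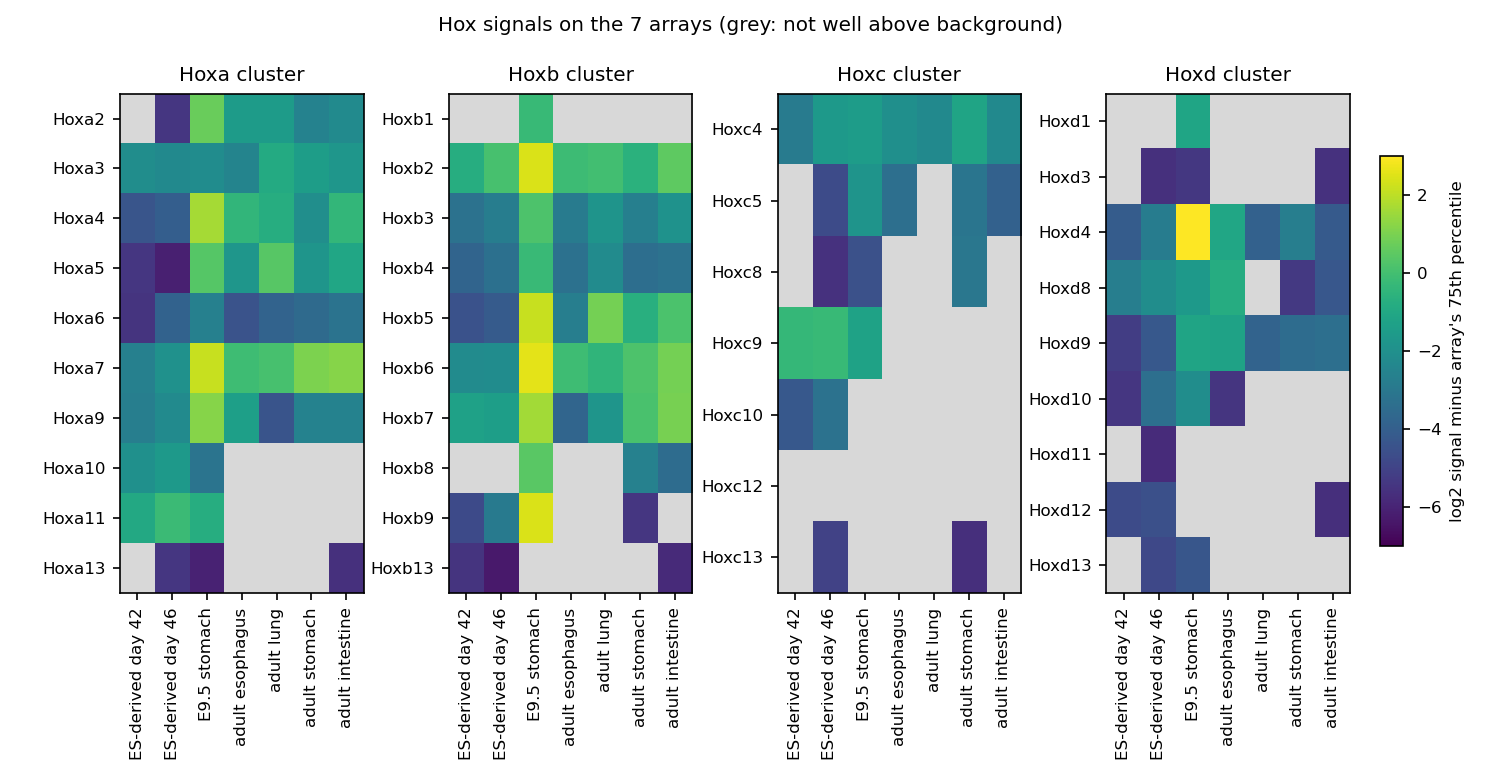
Signal of the 36 Hox genes on the 7 arrays, as log2 signal minus the array's 75th percentile (colour scale), with a panel per cluster and genes ordered by paralog number from the 3′ end at the top; grey marks a gene whose main probe was not well above background. Colours are to be read along a row, since probes differ in brightness: the E9.5 column is the brightest in 21 rows, and the grey blocks at the lower right of the Hoxa and Hoxc panels are 5′ genes without signal in adult organs.

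Levels are given below as log2 signal relative to the array's 75th percentile, so that 0 is that percentile, and are compared for the same gene across arrays only. By this measure E9.5 stomach was the highest array for 21 of 36 Hox genes against 24.7% of all genes, among them 9 of 11 genes of paralog groups 1 to 4, 7 of 10 of groups 5 to 8 and 5 of 15 of groups 9 to 13. The day 46 array was the highest for 8 Hox genes, all of groups 9 to 13, against 11.6% of all genes. Only arrays with the Hox gene above background were ranked. Hoxd11, 1 of the 8, had a higher signal in lung (-5.60), not above background there. Hoxc9 and Hoxd12 exceeded day 42 by 0.07 and 0.14 log2 units, less than the SD between probes (0.51), and Hoxa13 was at -5.43 against -5.61 in intestine. Lung was the highest for Hoxa3 and Hoxa5, adult stomach for Hoxc4 and Hoxc8, esophagus for Hoxd8 and day 42 for Hoxb13.

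Paralog group 1 acts in the hindbrain and adjoining mesoderm at the front limit of the Hox domain. Hoxb1 stood at -0.28 in E9.5 stomach and was not well above background on the other 6 arrays, where its signals lay between -8.34 in adult stomach and -7.26 in lung. Hoxd1 gave -1.13 at E9.5 and between -7.96 and -6.55 elsewhere, again not above background. Both genes thus had signal on the embryonic array alone.

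Hoxa2 and Hoxb2, which pattern the hindbrain and the second pharyngeal arch, differed from each other in the ES-derived tissue. Hoxa2 reached 0.72 at E9.5, -1.51 in esophagus, -1.52 in lung, -2.22 in intestine, -2.58 in adult stomach and -5.42 at day 46, and was not above background at day 42 (signal -7.19). Hoxb2 was above background throughout, at 2.43 in E9.5 stomach, 0.50 in intestine, 0.10 at day 46, -0.01 in lung, -0.16 in esophagus, -0.60 in adult stomach and -0.76 at day 42. Day 42 was the lowest array for both genes.

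Of paralog group 3, which shapes the neck and the pharyngeal organs, Hoxa3 was highest in lung (-0.88) and lowest in esophagus (-2.48), and Hoxb3 highest at E9.5 (0.21) and lowest at day 42 (-3.22). The second Hoxa3 probe was highest at E9.5 (-1.97) and not above background at day 42 (-7.50) or in adult stomach (-6.37). Hoxd3 was at -5.38 in E9.5 stomach, -5.56 in intestine and -5.61 at day 46 by its main probe, and at -2.57 in E9.5 stomach and above background nowhere else by its second. The paralog 4 genes specify cervical vertebrae, and Hoxd4 had one of the widest ranges of the family. Its levels were 3.05 in E9.5 stomach, -1.07 in esophagus, -2.71 in adult stomach, -2.80 at day 46, -3.88 in lung, -4.07 at day 42 and -4.18 in intestine. Hoxa4 was at 1.64 in E9.5 stomach, -0.40 in intestine, -0.43 in esophagus, -0.77 in lung, -2.05 in adult stomach, -4.01 at day 46 and -4.36 at day 42. Hoxb4 ranged from -0.23 at E9.5 to -3.78 at day 42. Hoxc4 took a different course, with -1.17 in adult stomach, -1.45 at E9.5, -1.58 at day 46, -2.03 in esophagus, -2.26 in both lung and intestine, and -2.84 at day 42.

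Paralog group 5 holds genes needed for normal lung and foregut mesenchyme. Hoxa5 was at 0.39 in lung and 0.37 in E9.5 stomach, then -1.07 in intestine, -1.73 in esophagus, -1.78 in adult stomach, -5.41 at day 42 and -6.13 at day 46. Hoxb5 had a level of 2.17 at E9.5, 0.91 in lung, 0.17 in intestine, -0.68 in adult stomach, -2.73 in esophagus, -4.13 at day 46 and -4.50 at day 42. Both genes therefore had the ES-derived arrays at the bottom of their order and lung at or next to the top. Hoxc5 was at -1.83 in E9.5 stomach, -3.12 in adult stomach, -3.33 in esophagus, -3.88 in intestine and -4.71 at day 46, and was not above background at day 42 (-6.05) or in lung (-6.86).

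Hoxa7, Hoxb6 and Hoxb7, genes of the trunk, were above background on all arrays. Hoxa7 was at 2.16 in E9.5 stomach, 1.20 in intestine, 1.04 in adult stomach, 0.08 in lung, -0.09 in esophagus, -1.96 at day 46 and -2.63 at day 42. Hoxb6 ranged from 2.60 at E9.5 to -2.19 at day 42. Hoxb7 was instead lowest in esophagus, at -3.76, with 1.61 at E9.5, 0.94 in intestine, 0.12 in adult stomach, -1.28 at day 42, -1.38 at day 46 and -1.77 in lung. Hoxa6 ran from -2.65 at E9.5 to -5.48 at day 42.

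The paralog 8 genes divided the adult organs. Hoxb8 stood at 0.43 in E9.5 stomach, -2.59 in adult stomach and -3.47 in intestine, and its main probe was not above background in lung (-7.47), esophagus (-8.35), at day 42 (-7.87) or at day 46 (-7.68). A second, dimmer Hoxb8 probe was above background at E9.5 (-4.80) and at day 46 (-6.19), which is why the gene is counted at day 46, and it was not above background in adult stomach (-7.99) or intestine (-8.30). Hoxc8, a gene of the lower thoracic and limb-level axis, was at -3.02 in adult stomach, -4.53 at E9.5 and -5.57 at day 46 and not above background in esophagus (-5.74), at day 42 (-6.05), in lung (-7.04) or in intestine (-7.42). Hoxd8 was at -0.83 in esophagus, -1.62 at E9.5, -2.11 at day 46, -2.71 at day 42, -4.28 in intestine and -5.34 in adult stomach, and in lung (-6.43) not above background. The highest adult organ was thus stomach for Hoxc8 and, by its main probe alone, for Hoxb8, and esophagus for Hoxd8.

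Paralog group 9 lies at the boundary between the trunk and tail genes of the clusters, and its members differed in where they were found. Hoxb9 was at 2.43 in E9.5 stomach, -2.92 at day 46, -4.74 at day 42 and -5.40 in adult stomach, with no signal above background in intestine (-6.35), lung (-7.44) or esophagus (-7.54). Hoxc9 was at -0.28 at day 46, -0.35 at day 42 and -1.25 in E9.5 stomach, while its signals in adult intestine (-6.30), lung (-7.43), esophagus (-8.33) and stomach (-8.50) were not above background. Hoxa9 was above background everywhere, from 1.19 at E9.5 down to -4.39 in lung. Hoxd9 was at -1.16 in E9.5 stomach and -1.25 in esophagus, then between -3.37 and -5.17 on the other arrays, day 42 being the lowest by this probe. Its second probe put day 42 (-4.01) above adult stomach (-5.53), with lung (-6.38) and intestine (-6.21) not above background.

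Hoxa10 and Hoxa11, whose proteins act in lumbosacral vertebrae, limbs and the reproductive tract, divided the adult arrays from the others, as did Hoxc9. Hoxa10 was at -1.59 at day 46, -1.96 at day 42 and -3.16 in E9.5 stomach, against signals of -7.12 in lung, -7.78 in esophagus, -7.83 in intestine and -7.95 in adult stomach, none of them above background. Hoxa11 gave -0.18 at day 46, -0.78 in E9.5 stomach and -0.97 at day 42, against -7.17 in lung, -8.07 in esophagus, -8.23 in intestine and -8.31 in adult stomach. For both genes the adult signals lie below the lowest level that any of these adult arrays calls above background.

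Hoxc10 was above background on the ES-derived arrays alone, at -3.22 at day 46 and -4.26 at day 42, with signals between -6.36 and -5.74 on the other 5. Hoxd10, a gene of lumbar motor neurons and limbs, was at -2.11 in E9.5 stomach, -3.34 at day 46, -5.41 at day 42 and -5.47 in esophagus, and not above background in adult stomach (-6.50), lung (-7.08) or intestine (-7.98). Hoxd11 was above background at day 46 alone, at -5.76.

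The genes of the 5′ end, which act in hindgut, genital tubercle, digits and tail, were above background on 3 arrays at most. Hoxa13, a hindgut gene, was at -5.43 at day 46, -5.61 in intestine and -6.03 at E9.5, and not above background in esophagus (-6.07), at day 42 (-6.46), in adult stomach (-7.03) or in lung (-7.07). Hoxb13 was at -5.51 at day 42, -5.81 in intestine and -6.31 at day 46. It was not above background in adult stomach (-7.07), lung (-7.45), esophagus (-8.42) or E9.5 stomach (-8.51). Intestine was thus the adult organ with signal for both, within 1 log2 unit of that array's limit and for Hoxa13 by its main probe alone. The second Hoxa13 probe was above background at day 46 only (-6.16), with signals of -7.82 in intestine and -8.14 at E9.5. Hoxd13 was at -4.33 in E9.5 stomach and -4.82 at day 46, and its signals on the other arrays lay between -8.50 and -7.38. Hoxc13, best known from hair follicles, was at -5.04 at day 46 and -5.65 in adult stomach and not above background at day 42 (-6.63), in esophagus (-6.72), lung (-7.08), intestine (-8.08) or E9.5 stomach (-8.46). Hoxd12 was at -4.57 at day 46, -4.71 at day 42 and -5.63 in intestine. Hoxc12 gave signals between -8.84 and -6.33.

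**Figure D3:**
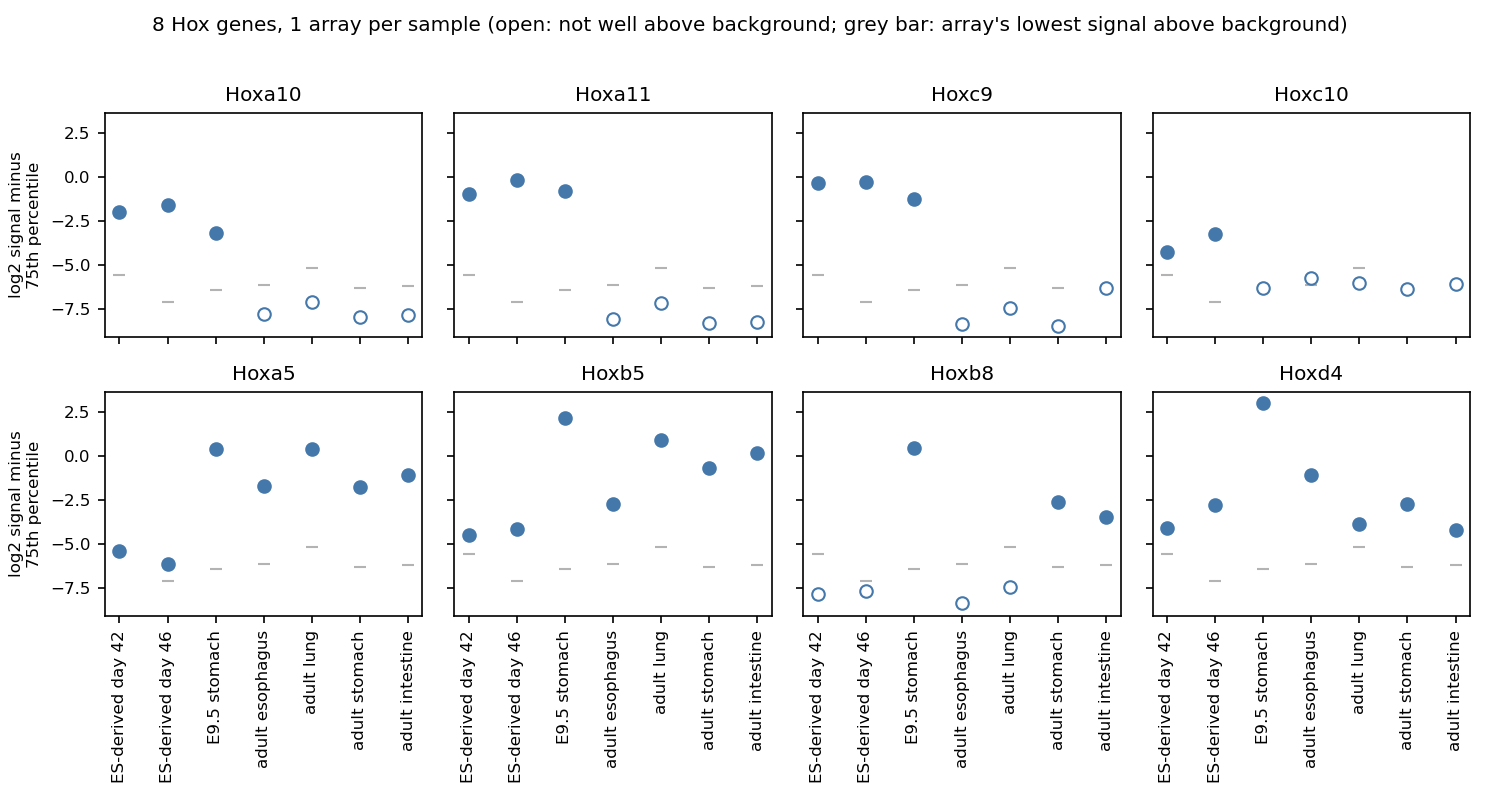
Log2 signal minus the array's 75th percentile (vertical axis) of 8 Hox genes on the 7 arrays, with filled points for signals well above background, open points for signals that were not, and a grey bar at each array's lowest signal above background. Hoxa10, Hoxa11 and Hoxc9 have filled points on the first 3 arrays and open points in the 4 adult organs, while Hoxa5 and Hoxb5 lie lower at days 42 and 46 than on the 5 other arrays.

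In the comparisons that follow, a gene above background on 1 of the arrays has a lower bound in place of a fold ("at least"), and a gene above background on neither is left out. A gene was counted where the difference was at least 4-fold. The comparisons share arrays: adult stomach enters 5 of the 7 and day 42 enters 3, so their values are set side by side and not taken as independent.

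E9.5 stomach against adult stomach asks how the organ at its first appearance differs from the mature one. Of the 31 Hox genes measured, 20 were at least 4-fold higher in E9.5 stomach (64.5%) against 11.5% of all genes, and 0 were at least 4-fold lower against 18.1% of all genes. The median difference was 2.90 log2 units over the Hox genes and -0.02 over all genes. Hoxb9 was 228-fold higher, Hoxd4 53.9-fold, Hoxa9 13.6-fold and Hoxd8 13.2-fold. Among genes not above background in adult stomach, Hoxb1 was at least 65.8-fold higher, Hoxa11 at least 46.4-fold, Hoxd1 at least 36.4-fold, Hoxc9 at least 33.5-fold and Hoxd10 at least 18.4-fold. With another background correction the bounds were smaller, and 15 Hox genes were at least 4-fold higher and 0 lower. Hoxb1 (2.90 log2 units), Hoxa11 (2.47), Hoxd1 (2.06) and Hoxc9 (2.01) stayed past 4-fold, and Hoxd8 (1.48) and Hoxd10 (1.07) did not. Nor did Hoxa10, at least 8.88-fold higher as reported and at 0.43 log2 units with that correction.

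The higher genes came from every part of the clusters: 8 of 11 in paralog groups 1 to 4, 5 of 10 in groups 5 to 8 and 7 of 10 in groups 9 to 13. By cluster they were 6 of 10 Hoxa genes, 8 of 9 Hoxb genes, 5 of 7 Hoxd genes and 1 of 5 Hoxc genes. The Hoxc median was -0.29. Hoxc8 differed by -1.51 log2 units (2.85-fold lower at E9.5), Hoxc4 by -0.29 and Hoxc5 by 1.29. Outside Hoxc, the one negative value was that of Hoxa3, at -0.70, and its direction turned with the probe, since the second Hoxa3 probe was at least 20.3-fold higher at E9.5. Hoxd3 was at least 13.4-fold higher by its second probe and at least 1.91-fold by the main one, and Hoxb8, 8.1-fold higher by its main probe, at least 2.85-fold by its second.

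Other embryonic cell types moved with this result. All 7 measured somite markers and 8 of 10 neural tube markers were at least 4-fold higher on the E9.5 array, with levels of 3.09 for Tcf15 and 2.84 for Meox1 (somites) and 0.33 for Neurog2 and -0.41 for Olig2 (neural tube). Adult stomach gave -4.08 for Tcf15, -1.92 for Meox1 and -5.69 for Olig2, and Neurog2 was not above background there (-5.89). The median difference was 5.71 log2 units over the somite list and 3.09 over the neural tube list. All 5 smooth muscle markers were at least 4-fold lower. Barx1, the homeobox gene of stomach mesenchyme, was at 0.98 at E9.5 and 0.76 in adult stomach. The part of neural tube and somite tissue in the Hox result was not tested.

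Day 42 against adult stomach sets the ES-derived tissue beside the organ it is named for. Of 29 Hox genes measured, 5 were at least 4-fold higher at day 42 (17.2%) against 7.32% of all genes, and 9 at least 4-fold lower (31.0%) against 10.2%. The split differed along the cluster. In paralog groups 9 to 13, 4 of 11 were higher and 0 lower, with a median of 0.90 log2 units. In groups 5 to 8, 1 of 10 was higher and 7 lower, with a median of -2.50, and in groups 1 to 4, 0 of 8 were higher and 2 lower, with a median of -1.02. The 4 higher genes of groups 9 to 13 all have a bound, which cannot change sides. Over genes above background on both arrays, groups 9 to 13 had 0 higher and 0 lower, with a median of -0.15. Groups 5 to 8 then had 1 higher and 4 lower (median -2.42), and groups 1 to 4 had 0 and 1 (-0.68).

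The 5 genes higher at day 42 were Hoxc9 (at least 62.4-fold), Hoxa11 (at least 40.6-fold), Hoxa10 (at least 20.4-fold), Hoxd8 (6.2-fold) and Hoxc10 (at least 4.16-fold). Lower at day 42 were Hoxb5 (14-fold), Hoxa7 (12.7-fold), Hoxa5 (12.3-fold), Hoxb6 (5.34-fold) and Hoxa4 (4.95-fold). The bounds for Hoxa2 (at least 7.95-fold), Hoxb8 (at least 7.89-fold), Hoxc8 (at least 5.84-fold) and Hoxc5 (at least 5.44-fold) lay on the same side. By their second probes Hoxa4 was at least 2.21-fold lower, Hoxc10 at least 1.81-fold higher and Hoxb8 not above background on either array, and the mean over probes left 4 Hox genes higher and 7 lower. Among genes above background on both arrays, Hoxa9 (-0.15 log2 units), Hoxb2 (-0.16), Hoxb4 (-0.39), Hoxb3 (-0.53), Hoxb9 (0.66) and Hoxa3 (-0.68) differed by less than the SD between probes.

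Across genes, Spearman's rank correlation between the difference and the paralog number was 0.57 over the 29 genes and 0.04 over the 17 that were above background on both arrays, so that the positive value rests on genes with a bound. Genes of a cluster are neighbours and are not independent. Other scalings changed the balance of the calls: 5 higher and 6 lower with median centring, 6 and 6 with quantile normalization, 2 and 6 with the other background correction, and 1 and 5 over genes above background on both arrays. With the other background correction Hoxc9 (2.72 log2 units) and Hoxa11 (2.21) stayed at least 4-fold higher, and Hoxa10 (1.18), Hoxd8 (0.49) and Hoxc10 (0) did not. Endothelial markers (4 of 4) and smooth muscle markers (4 of 5) were at least 4-fold lower at day 42 and heart markers (4 of 4) at least 4-fold higher. Of 7 gut mesenchyme markers, 2 were at least 4-fold lower, and 6 were above background at day 42 (78.5% of all genes were). Barx1 was not, with a signal of -5.60 next to the array's limit of -5.57. The part of these tissues in the Hox differences was not tested.

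**Figure D4:**
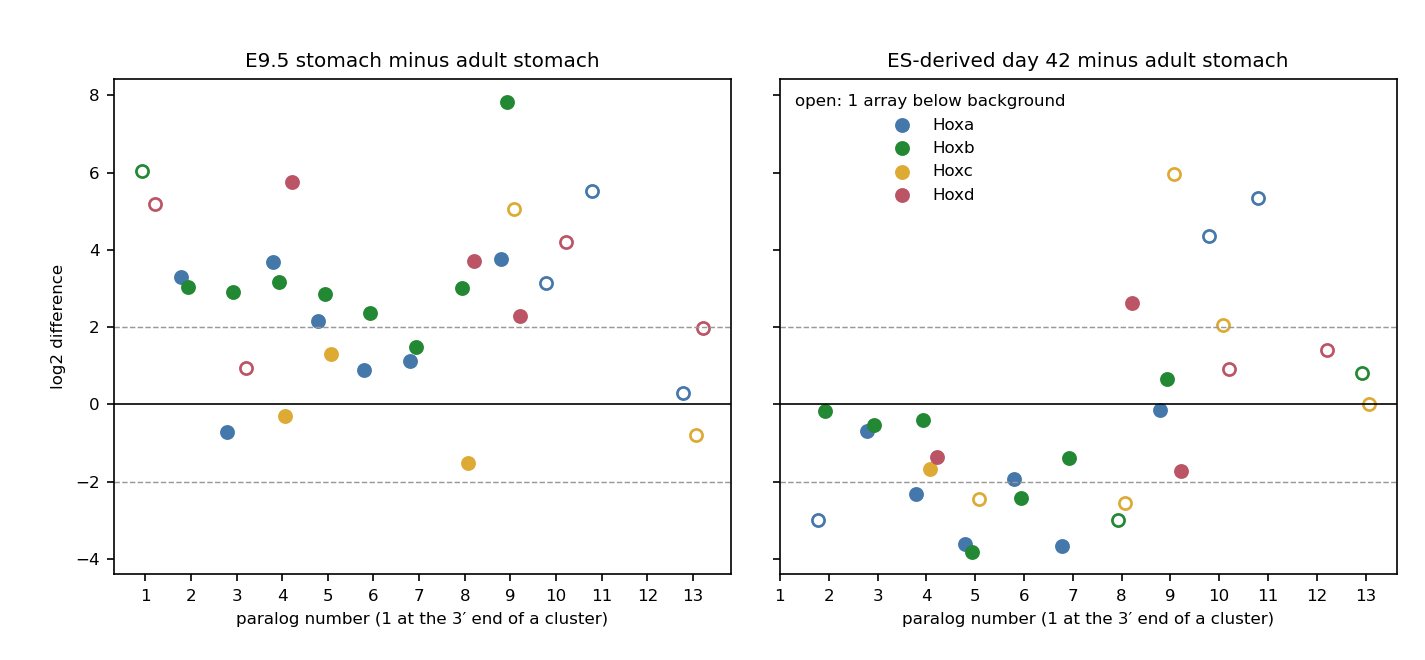
Log2 difference from adult stomach (vertical axis) of each measured Hox gene against its paralog number (horizontal axis), for E9.5 stomach on the left (31 genes) and ES-derived tissue at day 42 on the right (29 genes), coloured by cluster, with dashed lines at a 4-fold difference and open circles where 1 array was not above background, so that the point is a bound. On the left 20 points lie above the upper dashed line; on the right 7 of the 9 points below the lower line have paralog numbers 5 to 8, and 4 of the 5 above the upper line have numbers 9 to 11.

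Day 42 against E9.5 stomach compares the ES-derived tissue with the embryonic organ. Of 33 Hox genes measured, 1 was at least 4-fold higher at day 42 against 17% of all genes, and 20 were at least 4-fold lower (60.6%) against 11.5%. The median was -3.30 log2 units, and -0.03 over all genes. Hoxb9 was 144-fold lower at day 42, Hoxd4 139-fold, Hoxb5 102-fold, Hoxa4 63.9-fold and Hoxa5 55-fold, and Hoxa2 at least 77.8-fold and Hoxb8 at least 63.9-fold lower, the last by its main probe and at least 1.70-fold by its second.

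The lower genes made up 8 of 11 in paralog groups 1 to 4, 8 of 10 in groups 5 to 8 and 4 of 12 in groups 9 to 13, where the median was -0.10. That median includes genes with a bound, which cannot change sides. Over genes above background on both arrays, groups 9 to 13 had 4 lower, 0 higher and a median of -3.30. The medians were then -3.43 in groups 1 to 4 and -4.78 in groups 5 to 8. The 1 gene higher at day 42 was Hoxc10, by at least 4.13-fold. It was no longer past 4-fold with median centring, quantile normalization, the other background correction or the mean over its 2 probes. Hoxc9 (0.90 log2 units), Hoxa10 (1.20) and Hoxa11 (-0.19) were near their E9.5 levels, with the first and last differing by about the SD between probes or less. Hoxa3 differed by 0.03 by its main probe and was at least 12.1-fold lower at day 42 by its second, as was Hoxd3 at least 7.98-fold. Other cell types moved with this comparison. At least 4-fold lower at day 42 were 8 of 10 neural tube, 7 of 7 somite, 4 of 4 endothelial and 3 of 7 gut mesenchyme markers. At least 4-fold higher were 6 of 6 epithelial markers, with a median of 4.34 log2 units, 4 of 4 heart, 4 of 4 liver and 3 of 5 smooth muscle markers. Their part in the Hox result was not tested.

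Day 46 against day 42 covers the 4 days in Shh and Bmp4. Of 32 Hox genes measured, 1 was at least 4-fold higher at day 46 against 1.03% of all genes, and 0 were lower against 0.75%. That gene was Hoxd10, at -3.34 against -5.41 (4.19-fold), which fell short of 4-fold with median centring, quantile normalization and the other background correction. Past 2-fold were also Hoxb9 (3.53-fold), Hoxa6 (3.05-fold), Hoxd4 (2.42-fold), Hoxc4 (2.39-fold) and Hoxc10 (2.05-fold), each higher at day 46. The second probe gave at least 4.04-fold for Hoxb9 and -0.09 log2 units for Hoxc10. Of the 24 genes above background on both arrays, 18 differed by less than 1 log2 unit.

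Among those 24 genes 20 were higher and 4 lower at day 46, but 14 and 10 with median centring and 15 and 9 with quantile normalization, and the Hox median went from 0.45 log2 units to 0.05 and 0.03. Hoxa5 (-0.72) and Hoxb13 (-0.80) had the most negative values. Hoxc9 differed by 0.07, Hoxa10 by 0.38 and Hoxa11 by 0.79. The 9 genes above background at day 46 and not at day 42 (12.3% of all genes were of this kind) were Hoxa2, Hoxa13, Hoxb8, Hoxc5, Hoxc8, Hoxc13, Hoxd3, Hoxd11 and Hoxd13. The lowest signal called above background was -5.57 at day 42 and -7.13 at day 46, and none of the 8 genes other than Hoxb8, whose main probe was not above background on either array, had a bound of 2-fold, the highest being that of Hoxc5 at 1.82-fold.

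The adult organs, which shared a slide, differed in about the same share of Hox genes as of all genes. Over the 27 Hox genes above background in at least 1 adult organ, the highest organ was intestine for 10, esophagus and stomach for 6 each and lung for 5, and the range over the organs reached 4-fold for 10 (37.0% against 36.8% of all genes). These 10 were Hoxa9, Hoxd4, Hoxd8 and Hoxd9 with their highest level in esophagus, Hoxa5 and Hoxb5 in lung, Hoxb8, Hoxc5 and Hoxc8 in stomach, and Hoxb7 in intestine. Hoxa13, Hoxb13, Hoxd3 and Hoxd12, also highest in intestine, lay within 1 log2 unit of that array's limit. Over all genes, ranked on all arrays together, intestine was likewise the most frequent highest adult organ. Its share was 17.2%, against 8.69% for esophagus, 9.83% for stomach and 11.5% for lung.

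Intestine against stomach gave the fewest differences of the 3 adult comparisons. Of 26 Hox genes, 0 were at least 4-fold higher in intestine against 7.88% of all genes, and 1 was at least 4-fold lower against 7.01%. That gene was Hoxc8, at least 8.92-fold higher in stomach (0.37 log2 units with the other background correction). The largest value toward intestine was that of Hoxa4 (3.16-fold), followed by Hoxb2 (2.16-fold) and Hoxd8 (2.09-fold). The intestinal regulator Cdx2, a ParaHox protein that acts on Hox genes, was at 3.84 in intestine and not above background in adult stomach (-8.51).

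Lung against stomach gave Hox differences in both directions. Of 22 Hox genes, 1 was at least 4-fold higher in lung against 8.8% of all genes, Hoxa5 (4.52-fold), and 3 at least 4-fold lower against 8.88%, Hoxb8 (at least 6.03-fold), Hoxc8 (at least 4.46-fold) and Hoxc5 (at least 4.15-fold). Median differences were 0.74 log2 units over 8 genes of groups 1 to 4 -0.81 over 10 genes of groups 5 to 8 and -0.19 over 4 genes of groups 9 to 13, but the groups overlapped: Hoxa5 (2.18) and Hoxb5 (1.59) had the highest values, and Hoxc4 (-1.09) and Hoxd4 (-1.18) were negative. Spearman's correlation of the difference with the paralog number was -0.46 over 22 genes and -0.46 over the 16 above background on both arrays. With median centring the calls were 0 higher and 4 lower, with quantile normalization 1 and 5, and with the other background correction none was called. The second Hoxb8 probe was above background in neither organ, and the second Hoxa3 probe was at least 5.24-fold higher in lung. All 5 smooth muscle markers, 5 of 6 epithelial and 4 of 7 gut mesenchyme markers were at least 4-fold lower in lung, and 4 of 4 endothelial and 4 of 5 blood markers higher. Their part in the Hox differences was not tested.

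In esophagus against stomach the higher genes were of the Hoxd cluster and the lower ones mostly of Hoxb. Of 23 Hox genes, 2 were at least 4-fold higher in esophagus against 5.32% of all genes, Hoxd8 (22.9-fold) and Hoxd9 (4.59-fold), and 4 were at least 4-fold lower against 6.28%. These were Hoxb7 (14.6-fold), Hoxb8 (at least 11.5-fold), Hoxc8 (at least 6.59-fold) and Hoxb5 (4.12-fold). The 4 measured Hoxd genes had a median of 1.92 log2 units and the 8 Hoxb genes of -0.53. With the other background correction 2 genes passed 4-fold in place of 6. The second probe gave 37.7-fold for Hoxd9 and at least 5.18-fold for Hoxa3, both higher in esophagus, and was above background in neither organ for Hoxb8. All 4 lung markers were at least 4-fold higher in esophagus than in stomach and 5 of 6 epithelial markers lower, and their part in the Hox differences was not tested.

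Hox proteins bind DNA together with the TALE homeodomain proteins of the Pbx, Meis and Pknox families. All 9 genes of that list were above background on every array, and 5 of 9 were at least 4-fold higher in E9.5 than in adult stomach (6 of 9 with median centring or quantile normalization) and 0 lower, against 11.5% and 18.1% of all genes, with a median of 2.13 log2 units. Meis2 was at 5.29 in E9.5 stomach, 3.36 at day 46, 2.72 in intestine, 2.54 at day 42, 2.53 in adult stomach, 1.49 in esophagus and 1.40 in lung. Pbx2 was at 3.42 at E9.5 and between 0.01 and 1.57 on the others. At day 42, 4 of 9 were at least 4-fold lower than at E9.5, and against adult stomach 1 was higher and 1 lower (3 and 0 with median centring).

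Retinoic acid switches on the 3′ Hox genes, and the genes of its pathway were mixed: 6 of 13 were at least 4-fold higher in E9.5 than in adult stomach and 4 lower, against 11.5% and 18.1% of all genes. Aldh1a2, the main synthetic enzyme of the embryo and named for that role after its values were seen, was at 4.44 in E9.5 stomach, 2.30 in intestine, 1.45 in esophagus, 1.38 in lung, 0.85 in adult stomach, -0.18 at day 42 and -1.16 at day 46. Aldh1a1 and Aldh1a3 had wider ranges and went the other way. Aldh1a1 was at -1.83 at E9.5 and between 2.40 and 6.90 elsewhere, and Aldh1a3 at -6.03 at E9.5 and between -4.41 and 1.32 elsewhere. Crabp1, a retinoic acid binding protein, was at 4.21 at E9.5, -3.73 in esophagus and -4.39 in intestine and not above background at day 42 (-6.65), day 46 (-6.82), or in lung (-6.35) or adult stomach (-5.80). Day 42 had 2 of 12 higher and 3 lower than adult stomach, and 3 of 13 higher and 4 lower than E9.5 stomach.

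The Cdx genes carry axial signals to the 5′ genes of the clusters, and the list of ParaHox and related regulators held 10 genes with a probe. Cdx2 was at 3.84 in intestine, -0.25 in lung, -3.99 at day 46, -4.38 at day 42 and -5.29 at E9.5, and not above background in esophagus (-8.38) or adult stomach (-8.51). Cdx1 was at -0.71 in intestine, -2.68 in E9.5 stomach and -6.53 at day 46 and not above background elsewhere, and Cdx4 was above background on no array. Of this list, 3 of 8 were at least 4-fold higher in E9.5 than in adult stomach and 1 lower, and none was higher and 1 lower with the other background correction. Against adult stomach, day 42 had 1 of 7 higher and 1 lower (3 and 1 with median centring or quantile normalization).

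Polycomb proteins keep Hox genes silent outside their domains and trithorax proteins keep them active. Of 18 such genes, 4 were at least 4-fold higher in E9.5 than in adult stomach and 3 lower (7 and 1 with median centring), against 11.5% and 18.1% of all genes. Ezh2, the main histone methyltransferase of Polycomb complex PRC2, was at 2.62 in E9.5 stomach and between -1.94 and -0.60 on the other 6 arrays, and Cbx2 was at 2.99 against -2.39 to -0.88. Cbx7, with a wider range than Ezh2, went the other way, at -3.88 at E9.5 against -0.25 to 1.38. Day 42 differed from adult stomach by at least 4-fold in 1 of 18, higher, against 7.32% of all genes, and day 46 from day 42 in 1 of 18, lower, which was Cbx8 at -4.09 against -1.69.

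For 10 Hox genes a second probe gave another reading of the same RNA. The highest array was the same by both probes for 6 of them, Hoxa4, Hoxa13, Hoxb3, Hoxb8, Hoxb9 and Hoxd3. It was lung by one Hoxa3 probe and E9.5 stomach by the other, E9.5 stomach or esophagus for Hoxd9, and day 46 or day 42 for Hoxc10. One Hoxd13 probe was above background on no array, so the Hoxd13 values above rest on the other. The number of arrays above background was the same by both probes for 1 of the 10 genes. Over the 7 comparisons the main probes of these genes gave 17 differences of at least 4-fold, and the second probe gave 9 of them too and 0 in the opposite direction. It was above background on neither array for 3. The 8 not found by the second probe belonged to Hoxb8, Hoxc10 and Hoxa4, and 7 others, of Hoxa3, Hoxd3 and Hoxb9, passed 4-fold by the second probe alone.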

How the data were processed

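RNA of 7 samples was measured on 1-colour Agilent 4x44K arrays, 1 array per group. Per the submitters' processing notes, signal was extracted with Agilent Feature Extraction 10.5; in the file headers the ES-derived samples carry release 10.7.3.1 and the others 10.5.1.1. Per the file headers, each file holds background-corrected intensity for 45018 spots, and other columns flag controls, outliers and spots clearly over background. A log2 table deposited by the authors, shifted to the 75th percentile per the labels, has column medians between -3.43 (E9.5 stomach) and -2.68 (lung) and followed the values used below with correlations of at least 0.999, which fixes its scale, centring and direction.

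Control and outlier spots were left out, and log2 intensity was averaged over a probe's spots, minus the array's 75th percentile. No spot was saturated. RefSeq accessions named 24375 of the 41174 probes and symbols another 57 (RefSeq table of build GRCm38.p6, used for names and promoter windows alone, as the array's grid names mm8), which left 16742 unnamed. A gene is represented by the probe measured on most arrays, then above background on most, then brightest. Where 1 of the arrays compared did not measure a gene, that side was set to its own signal or to the lowest signal the array called above background, whichever was higher, which gives a bound (0 where it changed sides). A Hox gene that had a probe is not reported here and is left out of all Hox counts. All other Hox genes may be named; values on all arrays were given for the 4 members per cluster with the largest range, the lowest and highest paralogs and others needed for a comparison. Members, lists and thresholds were chosen with earlier results of these data known. Counting was tested on simulated data. Python 3.11.15, numpy 2.4.6, pandas 2.3.3 and limma 3.58.1 (normexp, offset 50) were used.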

Additional observations from a re-analysis of the deposited data

How the results depend on the processing

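Alternatives were median centring, quantile normalization, normexp background correction, the authors' table, the mean over probes, both arrays above background, no background filter, a 2-fold threshold, other rules for calling signal and, chosen after seeing the data, the common level. The counts of Hox genes at least 4-fold different stayed within 1.5 times under all of these for E9.5 against adult stomach (14 to 25, 20 as reported) and day 42 against E9.5 stomach (15 to 27, 21 as reported), as did the 7 counts above background. Normexp gave 0 genes for intestine against stomach, 0 for lung against stomach, 2 for esophagus against stomach, 8 for day 42 against adult stomach and 0 for day 46 against day 42, in place of 1, 4, 6, 14 and 1. Counting only genes above background on both arrays gave 0 for intestine, 1 for lung and 6 for day 42 against adult stomach, since fewer genes enter. The 2-fold threshold gave 6 for intestine, 12 for lung, 12 for esophagus and 6 for day 46 against day 42. Without a filter intestine gave 3 and day 46 gave 2; the mean over probes gave 2 for day 46, and median centring and quantile normalization 0. Median centring moved the median of all genes from -0.02 to 0.54 for E9.5 against adult stomach, from 0 to 0.43 for day 42 against adult stomach, from 0 to -0.39 for day 46 against day 42, from -0.13 to -0.31 for lung, from -0.08 to 0.04 for intestine and from -0.03 to -0.13 for day 42 against E9.5 stomach. Of 1312 values of single Hox genes, 1154 moved by less than the SD between probes, 158 by more, and 0 of those past 4-fold changed sign. Among the 1154 are 136 from counting only genes above background on both arrays, which repeat the reported values and could not move. Where bounds were used, a bound could not change sign, so these counts overstate the stability. The cause of these shifts was not tested. Within 1 log2 unit of its array's limit were 7 of 24 Hox genes at day 42, where signal over background limits the values most. No paired analysis was possible because each group has 1 array.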
